A study of Mus musculus with 10 samples.

Results

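Cycling macrophages of SW1 tumors are described here, cells that carried both the RNA of C1q-expressing macrophages and the RNA of cell division. A cell barcode was taken as a cycling macrophage when it held at least 1000 genes, at most 10% mitochondrial unique molecular identifiers (UMIs, 1 for each captured RNA molecule), at least 10 UMIs of C1qa, C1qb and C1qc together, at least 3 UMIs of Mki67, Top2a and Birc5 together, and none of Sox10 or of the CD3 genes Cd3e, Cd3d and Cd3g. Of the 41936 barcodes of the 5 gene expression libraries, 394 met this rule. The cells were thus selected on measured UMIs, and the levels of the genes in the rule are given as a description of the selection.

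C1qa, C1qb and C1qc encode the chains of C1q, the first component of the classical complement pathway, which tissue macrophages are a main source of. Macrophages of tumors arise from blood monocytes and from cells seeded earlier in life, and they can divide in the tissue, a process that CSF1 acting on its receptor CSF1R sustains. A dividing cell first copies its DNA in S phase, with the MCM helicase and the enzymes of nucleotide synthesis, and then passes through G2 and mitosis (G2/M), with cyclin B, the CDK1 kinase and the proteins of the spindle.

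The tumors grew from SW1 cells, a mouse melanoma line, injected under the skin of female C3H/HeJ mice of 4 to 6 weeks, a strain known to carry a Tlr4 allele that does not respond to lipopolysaccharide. After 10 days of growth by the labels, a pretreatment cohort of 3 mice gave the day 0 library, which is labelled as control, and the other mice drank control water or water with the dietary sugar L-fucose (L-fuc) for 7 or 21 days. The labels differ on the dose, 100 mM in one field and 100 nM in another, and on the mice per treatment, 5 or 6. Cells sorted for CD45, the pan-leukocyte protein that Ptprc encodes, were pooled over mice, so each condition is 1 library. Below, series of 5 values follow the order control day 0, control and L-fuc at day 7, and then control and L-fuc at day 21.

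The libraries held 1725, 20741, 15288, 2754 and 1428 barcodes with 14439185, 119047810, 88986101, 21727157 and 16589803 UMIs. They gave 45, 109, 116, 74 and 50 cycling macrophages, with a median of 17191, 6206, 12982.5, 15986 and 26808 UMIs per cell. The cells of control day 7 were the shallowest. For comparison, non-cycling macrophages met the same rule with 0 UMIs of Mki67, Top2a and Birc5 (152, 325, 440, 300 and 128 cells, with medians of 10199, 4869, 7859.5, 9173.5 and 15030.5 UMIs), and the 643 macrophages with 1 or 2 such UMIs were put in neither group. Cycling tumor cells had at least 1 Sox10 UMI, at least 3 UMIs of the cell cycle genes and fewer than 10 of C1q (56, 2223, 604, 138 and 111 cells). With 1 library per condition there is no replicate, so no test could be made, and every interval given is an exact 95% interval for counting error only.

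Mki67 encodes Ki-67, a protein of dividing nuclei, Top2a encodes the topoisomerase that untangles replicated DNA, and Birc5 encodes survivin, a subunit of the chromosomal passenger complex. Their summed level in cycling macrophages was 720.5, 1139, 1099, 993 and 721 UMIs per 1000000 (CPM, over the summed cells of a library). UMIs of all 3 genes were found in 197 of the 394 cells, of 2 genes in 147 and of 1 gene in 50. Just inside the rule, 9, 22, 20, 14 and 4 cells had exactly 3 UMIs, and just outside it, 19, 56, 56, 31 and 17 macrophages had 2. On the C1q side, 0, 17, 10, 1 and 3 members had only 10 to 19 C1q UMIs, so control day 7 held most of the cells near that limit. The median was 414, 58, 202.5, 287 and 334.5 C1q UMIs.

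The promoters of these 3 genes and of Ccnb2, which encodes cyclin B2, are shown because the genes move together through the cycle. Each is 250 bases before to 50 bases after the start site in RefSeq on GRCm38.p6, written on the gene's strand: chr11:117848987-117849286 (+) for Birc5, chr11:99024140-99024439 (-) for Top2a, chr7:135716330-135716629 (-) for Mki67 and chr9:70421505-70421804 (-) for Ccnb2. Capitals mark the CHR element (TTTGAA or TTTAAA) and the CCAAT box (CCAAT) on either strand, which are known from promoters of genes of late cell cycle phases.
Birc5: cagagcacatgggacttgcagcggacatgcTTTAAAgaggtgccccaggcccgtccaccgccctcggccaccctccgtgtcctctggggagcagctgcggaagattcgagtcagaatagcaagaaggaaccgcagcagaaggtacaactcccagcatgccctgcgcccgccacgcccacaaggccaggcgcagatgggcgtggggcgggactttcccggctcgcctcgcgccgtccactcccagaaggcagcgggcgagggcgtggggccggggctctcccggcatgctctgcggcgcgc
Top2a: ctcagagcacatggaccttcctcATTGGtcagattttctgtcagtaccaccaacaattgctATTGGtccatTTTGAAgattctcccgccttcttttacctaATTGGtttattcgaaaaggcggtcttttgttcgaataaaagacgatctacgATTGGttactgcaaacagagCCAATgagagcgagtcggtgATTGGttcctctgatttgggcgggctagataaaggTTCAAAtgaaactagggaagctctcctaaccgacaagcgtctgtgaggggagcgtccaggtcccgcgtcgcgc
Mki67: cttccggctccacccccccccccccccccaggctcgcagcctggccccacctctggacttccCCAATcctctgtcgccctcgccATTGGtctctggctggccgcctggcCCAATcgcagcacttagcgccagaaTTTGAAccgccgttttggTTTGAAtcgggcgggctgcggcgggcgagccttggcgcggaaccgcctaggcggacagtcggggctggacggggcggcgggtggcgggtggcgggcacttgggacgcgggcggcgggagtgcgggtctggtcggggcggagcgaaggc
Ccnb2: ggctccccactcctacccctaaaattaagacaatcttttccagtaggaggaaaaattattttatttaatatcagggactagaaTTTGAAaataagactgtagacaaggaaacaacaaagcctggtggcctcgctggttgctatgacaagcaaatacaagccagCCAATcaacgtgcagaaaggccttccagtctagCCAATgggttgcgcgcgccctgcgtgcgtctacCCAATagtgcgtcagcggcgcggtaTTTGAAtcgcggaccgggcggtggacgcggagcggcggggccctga

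Birc5 had 1 CHR match, 220 bases before the start. Top2a had 2 CHR and 6 CCAAT matches, Mki67 2 and 3, and Ccnb2 2 and 3, with 1 of its CHR matches 5 bases after the start. Of the 53 genes of a G2/M list, 46 had a promoter in the table, and 37 of these (80.4%) held a CHR match, 36 (78.3%) a CCAAT match and 31 (67.4%) both. The shares over all 27025 genes with a promoter were 30.6%, 41.1% and 13.4%. In the S phase list 23 of 32 matched genes (71.9%) held CCAAT, near the share of the G2/M list, but 9 (28.1%) held CHR. An E2F match (TTTGGCGC, TTTCCCGC, TTTGCCGC or TTTCGCGC, either strand) was in 14 (43.8%) of them. It was in 3 of 46 (6.52%) in the G2/M list and in 2.60% of all genes. Among 17 matched genes of a macrophage identity list, 8 (47.1%) held CHR, 6 (35.3%) CCAAT and 1 (5.88%) E2F. These are matches of letters in 300 bases and not measured sites.

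The cells carried a macrophage profile beyond C1q. A UMI of Csf1r, Adgre1 (F4/80) or Cd68 was found in 382 of 394 cycling macrophages (97.0%) and in 1302 of 1345 non-cycling macrophages (96.8%). The level of Csf1r, the receptor for CSF1, was 255, 279, 243, 295 and 254 CPM in cycling macrophages and 0.715, 3.32, 1.37, 0.233 and 0.234 CPM in cycling tumor cells. Spi1, the transcription factor PU.1, was at 497, 424, 485, 580.0 and 370.2 CPM against 2.14, 4.97, 2.43, 0.466 and 0 CPM. All 24 genes of the macrophage identity list had UMIs in the cycling macrophages of each library. As a background, 7.14%, 15.3%, 8.11%, 3.62% and 9.01% of cycling tumor cells held a UMI of Csf1r, Adgre1 or Cd68. RNA of at least 1 of these 3 genes, which are outside the rule, was thus in nearly every cycling macrophage.

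Before the comparisons, RNA of other cell types in these barcodes has to be set out, beginning with the tumor. Apod and Sparc, a lipocalin and a matrix protein, were the tumor genes chosen for this check. Neither had a UMI in 40 of 45, 11 of 109, 75 of 116, 63 of 74 and 39 of 50 cycling macrophages (88.9%, 10.1%, 64.7%, 85.1% and 78.0%). In 0, 3, 3, 0 and 0 cells there were 10 or more UMIs, with a highest value of 2, 77, 19, 2 and 4. Control day 7 stood apart from the other libraries. The summed level of both genes in cycling macrophages was 0.173%, 12.5%, 1.87%, 0.335% and 0.416% of that in cycling tumor cells, close to the 0.127%, 12%, 2.48%, 0.612% and 0.748% of non-cycling macrophages. T cells were chosen with at least 3 Cd3 UMIs, no Sox10 UMI and fewer than 10 C1q UMIs, and without use of Apod or Sparc. These T cells carried 0.0964%, 19.2%, 3.37%, 0.481% and 0.413% of the tumor level. Tumor RNA was thus found across the cell types of control day 7. The summed level of Apod and Sparc was higher in cycling than in non-cycling macrophages at control day 0 and control day 7 and lower in the other libraries. At control day 7, however, 1 cell held 69 of the 134 Apod UMIs, and Sparc alone was lower in cycling macrophages, at 300 against 343 CPM. At control day 0 the list of 19 tumor markers summed to less in cycling macrophages, 38.8 against 57.1 CPM.

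Over the whole list of 19 tumor markers, 7, 12, 12, 8 and 10 genes had a UMI in cycling macrophages, and the list summed to 38.8, 591, 131, 60.2 and 66.8 CPM, against 5101, 4732, 4432, 4504 and 4007 CPM in cycling tumor cells. Its most abundant gene in cycling macrophages was Sparc at day 7 (300.1 CPM in control and 41.7 CPM in L-fuc) and Mitf, a transcription factor of melanocytes that macrophages also express, in the other libraries. The pigment genes Pmel and Tyr were at most 0.939 CPM in the tumor cells themselves and so carry no information here. Ptprc, which the sort used, was at 203, 480, 282, 503 and 339 CPM in cycling macrophages and at 0, 25.3, 16.2, 0.931 and 1.87 CPM in cycling tumor cells. Barcodes that met every other part of the rule but held Sox10, 3, 93, 36, 5 and 8 of them, were kept out by it.

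A second set of transcripts, those of immunoglobulin genes, stood out in 1 library. At least 1% of the UMIs came from immunoglobulin genes in 0, 0, 2, 1 and 10 cycling macrophages, so in 10 of 50 cells (10.0 to 33.7%) of L-fuc day 21. Among non-cycling macrophages of that library it was 3 of 128 (2.34%). In these 10 cells immunoglobulin RNA made up 12.4% to 45.9% of the UMIs, with a median of 28.1%, and over all cycling macrophages of L-fuc day 21 it made up 11.3%, against 0.0243%, 0.0257%, 0.50% and 1.48% in the libraries before it. The 10 cells also carried genes of antibody-secreting cells: Jchain, the joining chain of IgM and IgA, was at 7967 CPM against 11.2 CPM in the other 40 cells, Mzb1, a chaperone of antibody assembly, at 3447 against 4.06 CPM, and Xbp1, a transcription factor of secretory cells, at 893 against 150.3 CPM. Macrophage genes were present as well, with a median of 455.5 C1q UMIs and with Csf1r at 125 against 352 CPM. Their median depth was 77635.5 UMIs against 20149.5 in the other 40 cells. Both kinds of RNA were thus in the same barcodes, and the part of other cells in them was not tested. The share of cycling cells and the comparisons of L-fuc with control are given below with these barcodes and, where that moves a value, without them.

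**Figure D1:**
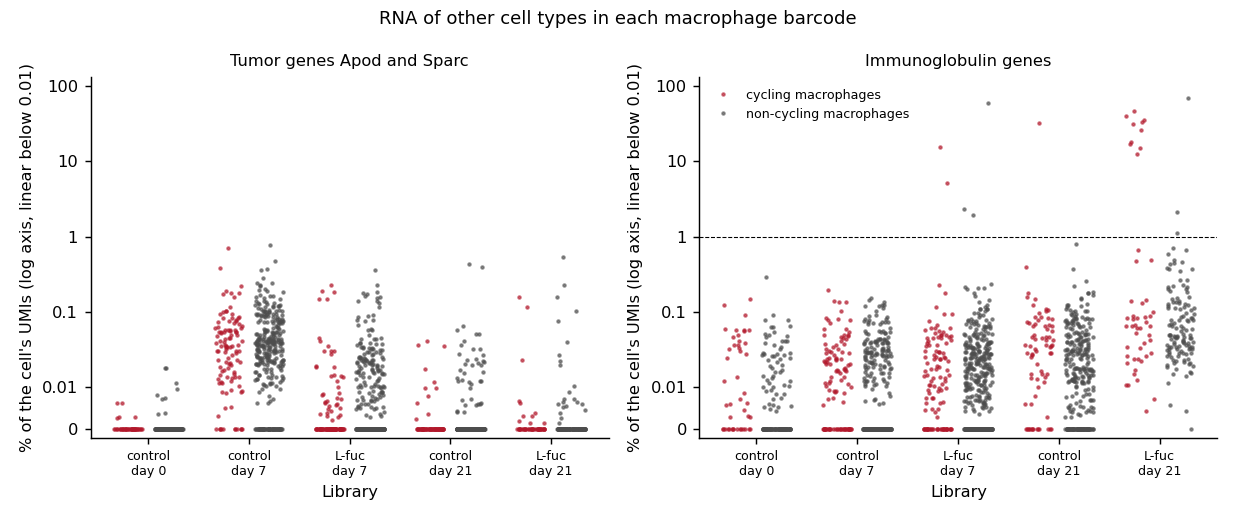
RNA of other cell types in single barcodes, as a percentage of the UMIs of each cell (y axis, logarithmic above 0.01 and linear below), in cycling (red) and non-cycling (grey) macrophages of the 5 libraries. Points are cells, and the dashed line marks 1%: Apod and Sparc (left) lie highest in control day 7 in both groups, and 10 of 50 cycling macrophages of L-fuc day 21 lie above the line for immunoglobulin genes (right).

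Barcodes were also checked for pairs of cells. Scrublet, which scores barcodes by their likeness to simulated pairs, marked 2, 298, 114, 8 and 4 barcodes of the libraries and 0 of the 394 cycling macrophages, also none of those with immunoglobulin RNA. In the day 7 libraries its own threshold marked 0 barcodes, so the number marked there was set by the expected 0.08% per 1000 cells. The count of 0 among cycling macrophages thus cannot show that no member is a pair of cells. T cell receptor libraries were made from these pools as well, and a receptor contig was found for 0 of 45, 0 of 109, 1 of 116, 0 of 74 and 0 of 50 cycling macrophages. The rule had already left out barcodes with Cd3 UMIs, so few contigs could be found. C1q macrophages with Cd3 UMIs, which are not members, held a contig in 75.6%, 43.4%, 53.4%, 35.7% and 35.3% of cases, and T cells in 85.9%, 73.7%, 71.0%, 88.9% and 68.2%. Where no contig was found, the exact interval reached up to 7.87%, 3.33%, 4.86% and 7.11% in control day 0, control day 7, control day 21 and L-fuc day 21. The libraries shared up to 433 barcode sequences in pairs, 2.83% of the smaller library, and no cycling macrophage was a member in both libraries of a pair.

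Genes of natural killer cells, red cells and cross-presenting dendritic cells were also counted. In 0, 5, 7, 0 and 0 cycling macrophages there were at least 5 UMIs of Ncr1, Gzma, Prf1 and Klrb1c. The 5 red cell genes summed to 0, 913, 3068, 7.92 and 0.576 CPM, highest in L-fuc day 7. A UMI of Xcr1 or Clec9a, receptors known from cross-presenting dendritic cells, was found in 8, 7, 25, 19 and 9 cycling macrophages (17.8%, 6.42%, 21.6%, 25.7% and 18%) and in 7.24%, 4.92%, 7.5%, 12% and 18% of non-cycling macrophages. Cycling tumor cells, whose medians were 24153.5, 10869, 20541, 29920 and 37718 UMIs, held one in 1.79%, 0.360%, 0.497%, 0% and 0%. The share was above that in tumor cells in all 5 libraries although cycling macrophages had fewer UMIs per cell than tumor cells. It was also above that in non-cycling macrophages, which had fewer UMIs per cell, except in L-fuc day 21, where both were 18%.

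Between 15.4% and 21.0% of the macrophages in a library were cycling. Of 260, 651, 751, 482 and 238 macrophages with C1q, 17.3% (12.9 to 22.5%), 16.7% (14.0 to 19.8%), 15.4% (12.9 to 18.2%), 15.4% (12.3 to 18.9%) and 21.0% (16 to 26.7%) had at least 3 UMIs of the cell cycle genes. All 5 intervals overlap. The share in L-fuc over that in control was 0.923 (0.704 to 1.21) at day 7 and 1.37 (0.936 to 1.99) at day 21, and both intervals include equal shares. With at least 5 UMIs of the cell cycle genes the ratio was 0.971 (0.703 to 1.34) at day 7 and 1.60 (1.03 to 2.45) at day 21, where the interval leaves out equal shares. Without the immunoglobulin barcodes the share in L-fuc day 21 was 18.3% and the ratio at day 21 was 1.20 (0.797 to 1.79). As a background, neutrophils, which do not divide, reached 3 such UMIs in 0 of 2, 0 of 10, 0 of 34, 1 of 15 and 0 of 5 cells, at a median of 2330.0, 1674.5, 1859.5, 3006 and 2931 UMIs. As a share of all barcodes with at least 1000 genes and at most 10% mitochondrial UMIs, cycling macrophages made up 3.97%, 0.763%, 1.74%, 6.39% and 7.85%. The same barcodes included 253, 9899, 3143, 465 and 239 tumor cells with Sox10.

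Depth differed between the libraries, so the share was also counted at equal depth, with the minimum lowered from 3 UMIs to 1. Without thinning, 41.5%, 50.1%, 41.4%, 37.8% and 46.2% of the macrophages held at least 1 UMI of the 3 genes. After each macrophage was thinned to 2000 UMIs, at least 1 UMI of Mki67, Top2a or Birc5 remained in 17.7%, 30.7%, 20.9%, 16.3% and 20.6% of the cells, with 0, 10, 1, 3 and 5 shallower cells left out. Control day 7 was the highest at this minimum both before and after thinning, and the ratio of L-fuc to control after thinning was 0.681 (0.549 to 0.844) at day 7 and 1.27 (0.864 to 1.84) at day 21. The summed level of the 3 genes over all C1q macrophages showed the same order at day 7, with 193, 312, 265, 221 and 272 CPM. Tumor RNA in proportion to Apod and Sparc would amount to 0.428, 47.2, 6.86, 2.16 and 5.98 CPM of it, and less that amount the levels were 192, 265, 258, 219 and 266 CPM. Among macrophages with no Apod or Sparc UMI, in contrast, the ratio of the unthinned shares at day 7 was 1.68 (0.889 to 3.52), which rests on 11 cycling macrophages of control day 7 and whose interval includes equal shares. Since the unthinned shares and the CPM rank the libraries differently, and the thinned value rests on about 1 UMI per cell, no order of the libraries is read from them.

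**Figure D2:**
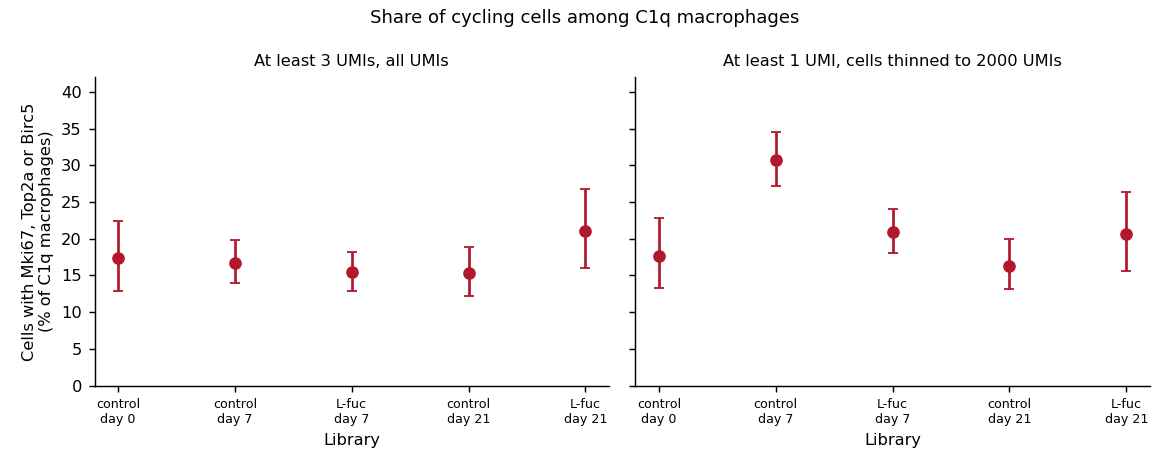
Share of C1q macrophages that were cycling, in percent (y axis), in each library, with at least 3 UMIs of Mki67, Top2a and Birc5 among all UMIs (left) and with at least 1 after thinning to 2000 UMIs per cell (right). Points are shares and bars are exact 95% intervals: all intervals overlap on the left, and control day 7 (30.7%) is highest on the right.

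The wider S phase and G2/M gene lists, with the 3 rule genes left out, were expressed together in cycling macrophages. The S phase list summed to 2293, 1678, 1971, 2366 and 1317 CPM, and the G2/M list to 4365, 5292, 5765, 5629.6 and 3566 CPM. L-fuc day 21 was lowest for both, but without the immunoglobulin barcodes it stood at 1706 and 4407 CPM and was the lowest for neither list. In non-cycling macrophages the S list reached 473, 633, 621, 466 and 502 CPM and the G2/M list 572, 1007, 707, 688 and 715 CPM. Cycling tumor cells were above the cycling macrophages on both lists in every library, with 3574, 3195, 3708, 3949 and 3818 CPM for S and 9592, 7969, 7509, 9969.6 and 9008 CPM for G2/M.

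G2/M UMIs exceeded S UMIs 1.90 times (1.80 to 2.01), 3.15 times (2.97 to 3.35), 2.92 times (2.81 to 3.05), 2.38 times (2.28 to 2.48) and 2.71 times (2.58 to 2.84) in cycling macrophages. The interval of day 0 lay below all others, and those of both day 7 libraries, which overlap each other, lay above that of control day 21. Without the immunoglobulin barcodes the ratio in L-fuc day 21 was 2.58. The ratio in cycling tumor cells was 2.68, 2.49, 2.03, 2.52 and 2.36, so macrophages were below the tumor cells at control day 0 and control day 21 and above them in the other 3 libraries. More G2/M than S UMIs were counted in 32 of 45, 94 of 109, 92 of 116, 54 of 74 and 39 of 50 cycling macrophages. The rule selects on Mki67, Top2a and Birc5, which peak late in the cycle, so these ratios hold for cells chosen in that way.

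**Figure D3:**
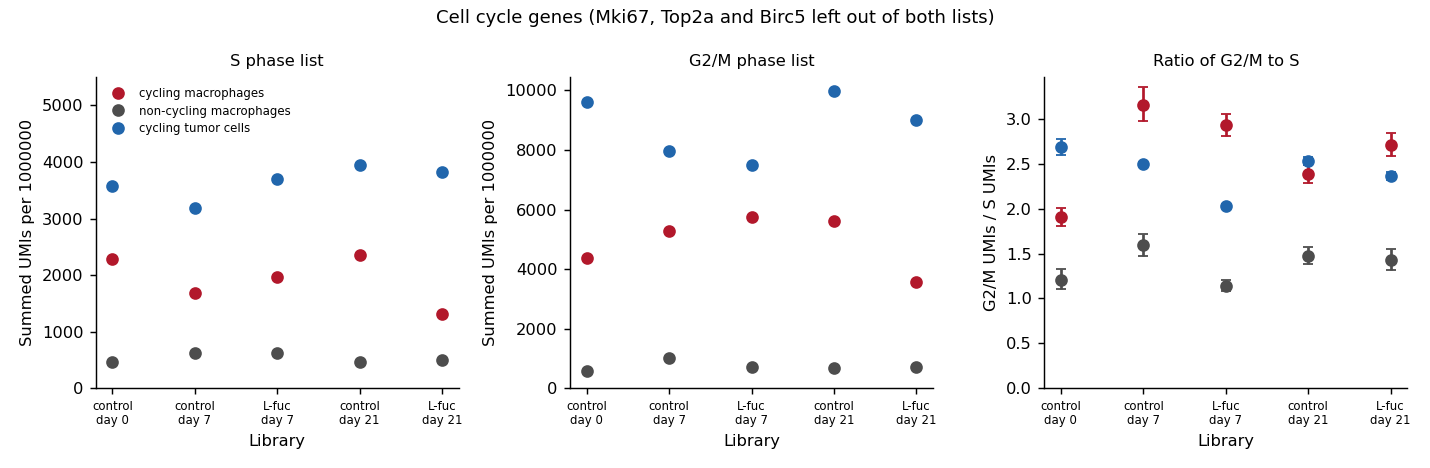
Summed level of the S phase list (left) and the G2/M list (middle) in UMIs per 1000000, and the ratio of their UMIs (right), for cycling macrophages (red), non-cycling macrophages (grey) and cycling tumor cells (blue) of each library. Points are sums over the cells of 1 library, and bars on the right are exact 95% intervals: in cycling macrophages the ratio is lowest at control day 0 (1.90) and highest at control day 7 (3.15).

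Single genes show the same for S phase. Mcm5, a subunit of the replicative helicase, was at 98.0, 47.0, 72.2, 92.7 and 35.7 CPM in cycling macrophages and 12.3, 15.2, 15.0, 7.04 and 12.4 CPM in non-cycling macrophages. Tyms, the enzyme that makes thymidylate, was at 119, 42.4, 101, 99.0 and 45.5 against 11.2, 10.9, 8.36, 4.99 and 4.94 CPM. Rrm2, a subunit of ribonucleotide reductase, was at 133, 60.7, 87.8, 101 and 48.4 against 5.04, 5.43, 3.44, 1.47 and 3.46 CPM. For all 3 genes the lowest cycling value was still above the highest non-cycling value, and within cycling macrophages control day 7 and L-fuc day 21 were the lowest libraries. These values of L-fuc day 21 include the immunoglobulin barcodes, without which the S phase list stood at 1706 instead of 1317 CPM there.

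G2/M genes were further apart. Ccna2, which encodes cyclin A2, was at 100.3, 108, 119.5, 110.1 and 80.6 CPM against 1.12, 9.23, 2.95, 0.587 and 0.988 CPM. Ccnb2 was at 107, 119, 103, 114 and 60.5 against 2.24, 10.3, 3.20, 2.64 and 0.988 CPM, Cdk1, the mitotic kinase, at 113, 87.0, 168, 134 and 81.8 against 6.72, 15.8, 6.15, 6.75 and 3.95 CPM, and Cenpf, a kinetochore protein, at 113, 235, 133, 154 and 116 against 1.12, 21.2, 3.20, 2.35 and 4.45 CPM. In non-cycling macrophages these genes were highest in control day 7, the library with the most tumor RNA, and Cenpf was at 386, 430.0, 373, 502 and 402 CPM in cycling tumor cells. Cenpf was also highest in the cycling macrophages of control day 7. The part of tumor RNA in those values was not tested.

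Across 6086 genes with at least 30 UMIs in both groups of macrophages together in every library, 122 (2.0%) were at least 2-fold higher in cycling macrophages in all 5 libraries and 0 (0.00%) were at least 2-fold lower. This contrast is the one the rule was made with, so it is given as a description. Of the 44 S phase genes 27 could be counted, and 20 were among the 122 genes; of the 53 G2/M genes 35 could be counted, and 31 were among them. The median log2 ratio was 1.83 for S phase, 4.20 for G2/M and 0.09 for all genes. Among macrophages with no Apod or Sparc UMI, of which 11 were cycling in control day 7, 0 S phase and 4 G2/M genes were at least 2-fold higher in all libraries, with medians of 0.78 and 2.35. With the genes of the rule left out, the 10 highest genes were Ccna2, with a median log2 ratio of 5.74 over the libraries, Pbk (5.67), Cenpf (5.23), Cdc20 (5.23), Ccnb2 (5.17), Plk1 (5.17), Nusap1 (5.08), Spc24 (5.01), Pclaf (5.00) and Kif20a (4.99). Ratios use a pseudocount of 1 UMI, on which that of Pbk depends, since it had 0 UMIs in the non-cycling macrophages of both day 21 libraries. Plk1 is a mitotic kinase, Cdc20 activates the anaphase-promoting complex, and Nusap1, Spc24 and Kif20a act at the spindle or kinetochore. In control day 7 the ratios were smaller, as for Ccna2 with log2 ratios of 5.76, 3.44, 5.18, 6.77 and 5.74.

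Inhibitors and partners of the cyclin-dependent kinases differed among themselves. Of 25 such genes, 15 could be counted, and 7 were higher and 2 lower in cycling macrophages in all 5 libraries. Of all 6086 counted genes, 1248 were higher and 645 lower in all 5 libraries. Cdkn2c and Cdkn2d, which encode inhibitors of the INK4 family, were the 2 genes of the list at least 2-fold higher in each library. Cdkn2c was at 42.2, 45.8, 53.5, 78.4 and 32.2 CPM against 7.84, 10.3, 8.12, 11.4 and 4.94 CPM in non-cycling macrophages, and Cdkn2d at 71.8, 66.4, 87.1, 95.9 and 56.4 against 22.4, 23.9, 21.9, 19.1 and 23.7 CPM. Cdkn1a, an inhibitor that DNA damage induces, went the other way, at 171, 275, 243, 200.5 and 288 against 351, 391, 314, 299 and 328 CPM, lower in cycling macrophages in all 5 libraries. Of the D-type cyclins, which respond to growth factors, Ccnd1 was at 138, 214, 157, 135 and 93.3 against 92.4, 156, 120.0, 81.5 and 114 CPM and was higher in cycling macrophages in every library but L-fuc day 21, where without the immunoglobulin barcodes it was at 130.01 against 117 CPM.

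Macrophage genes were kept at somewhat lower levels. Of the 24 macrophage identity genes, 15 were lower in all 5 libraries and 0 higher, with a median log2 ratio of -0.33, where 645 of the 6086 genes were lower and 1248 higher. None of the 24 differed 2-fold in all libraries. Apoe, a lipid carrier, was at 5019, 4172, 2846, 4710.5 and 3240.5 CPM in cycling and 6935, 10993, 5633, 9134 and 7958 CPM in non-cycling macrophages. Lyz2, lysozyme, was at 2661, 1409, 1459, 977 and 1391 against 4147, 2897, 2029.8, 1732 and 3045 CPM, and Cd14, a coreceptor for lipopolysaccharide, at 819, 638, 519, 462 and 426 against 1389.8, 1424, 742, 854 and 924 CPM. Each of these 3 genes was lower in cycling macrophages in all 5 libraries. Trem2, a lipid receptor, was at 632, 319.6, 359.8, 330.4 and 421 against 727, 593, 504, 551 and 593 CPM, while Csf1r was at 299.6, 268, 285, 349.9 and 333 CPM in non-cycling macrophages, above the cycling values except in control day 7. In L-fuc day 21 without the immunoglobulin barcodes Csf1r was at 352 CPM in cycling and 341 CPM in non-cycling macrophages.

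Of 18 counted genes of the CSF1 and GM-CSF axis and of macrophage transcription factors, 8 were lower in all libraries and 0 higher, with a median of -0.23. Maf, a transcription factor of macrophages, was at 73.0, 102, 75.3, 61.8 and 61.6 CPM in cycling against 61.0, 78.2, 61.5, 69.5 and 85.0 CPM in non-cycling macrophages, higher in 3 libraries and lower in both of day 21. Spi1 was at 429, 363, 409.8, 470.5 and 456 CPM in non-cycling macrophages, below the cycling values given above except in L-fuc day 21, where without the immunoglobulin barcodes it was at 466 against 472 CPM in cycling macrophages. Csf1 itself was scarce, at 2.28, 5.73, 1.87, 14.3 and 3.45 CPM in cycling macrophages.

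Genes of MHC class II, which present peptides to CD4 T cells, were lower as well. Of 8 genes 7 were lower in cycling macrophages in all 5 libraries, and 3 were without the immunoglobulin barcodes. The median log2 ratio was -0.42 over the libraries (-0.37 without those barcodes) and -1.04, -0.72, -0.41, -0.39 and -0.19 within them. H2-Aa was at 4031, 2664, 6328, 4981 and 5118 CPM against 9233, 5810.1, 8339, 6603 and 6369 CPM, and Cd74, the invariant chain, at 15739.9, 9788, 20358, 15945 and 19253 against 36496, 20148, 27483, 23187 and 21995 CPM. The gap was widest at control day 0 and narrowest in L-fuc day 21. MHC class I genes showed no such pattern, with 4 of 15 higher and 4 lower in all libraries and a median of 0.11.

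Genes of a hypoxia and glycolysis list were lower in 9 of 15 cases in all libraries and higher in 0, with a median of -0.50. Vegfa, the vascular growth factor that hypoxia induces, was at 119, 181, 159, 176 and 229 CPM against 264, 353, 288, 380.4 and 435 CPM. The 10 lowest genes were Ccl8 (-1.74), Thbs1 (-1.67), Fbxo32 (-1.55), Ccl5 (-1.54), Apoc4 (-1.51), Tcp11l2 (-1.35), Aldoc (-1.33), Zdhhc14 (-1.29), Clec4d (-1.28) and P4ha2 (-1.26), given with their median log2 ratio. Ccl8, a chemokine for monocytes and T cells, was at 1569.8, 355, 1180.2, 536 and 1435 CPM against 5237, 1461, 1579.8, 2076 and 2176 CPM, and in L-fuc day 21 without the immunoglobulin barcodes at 2289 against 2217 CPM. Aldoc is a glycolytic enzyme and P4ha2 a prolyl hydroxylase of collagen. Cycling macrophages were deeper than non-cycling ones in every library, which the scaling to CPM does not remove for genes with few UMIs.

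Inflammatory genes and further lists were counted in the same way, where of all 6086 genes 1248 were higher and 645 lower in all 5 libraries. Of 13 counted inflammatory genes, 0 were higher and 2 lower in all 5 libraries, with a median log2 ratio of -0.32. Il1b, the cytokine interleukin 1 beta, was at 1627, 1345, 1154, 2341 and 1556 CPM in cycling and 2515, 1844, 1563, 2165 and 2059 CPM in non-cycling macrophages. Tnf, tumor necrosis factor, had a median log2 ratio of 0.08. Of 6 counted genes of a tissue-resident type list, 0 were higher and 2 lower in all libraries, with a median of -0.72, and Mrc1 was at 49.0, 36.7, 35.5, 27.7 and 86.9 CPM against 148, 63.6, 32.0, 69.8 and 60.8 CPM. Of 5 counted monocyte genes 0 were higher and 1, Thbs1, lower in all libraries, with a median of -0.02, and Ccr2, the chemokine receptor that brings monocytes from blood into tissue, was at 17.1, 37.8, 46.7, 24.6 and 37.4 CPM against 43.1, 28.2, 55.8, 23.5 and 38.0 CPM. Of 10 chemokine genes 0 were higher and 1 lower (median 0.20), of 14 interferon-stimulated genes 0 higher and 2 lower (median -0.04), and of 6 counted fucosylation genes 1 higher and 0 lower (median 0.11).

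Lists of other cell types mostly fell under 30 UMIs. No gene of the fibroblast, T cell, natural killer cell, mast cell and red cell lists could be counted in all 5 libraries, and 1 of 19 tumor genes, 1 of 5 endothelial genes, 1 of 5 genes of plasmacytoid dendritic cells and 1 of 6 neutrophil genes could. Of 2 counted B cell genes, Cd79b and Ighm, both were higher in cycling macrophages in all 5 libraries, and of 2 counted dendritic cell genes 1 was. Ighm was at 166, 101, 97.1, 249.6 and 122 CPM in cycling and 76.7, 41.8, 59.3, 108 and 122 CPM in non-cycling macrophages, and Cd79a, a chain of the B cell receptor, at 11.4, 0, 8.09, 26.1 and 113 CPM in cycling macrophages. In L-fuc day 21 the 10 immunoglobulin barcodes raised the cycling values: in the other 40 cycling macrophages Cd79b was at 28.4 CPM, Ighm at 115 CPM and Cd79a at 0. Non-cycling macrophages of that library held 29.1 CPM of Cd79b and 122 CPM of Ighm, with their own 3 immunoglobulin barcodes kept in. The groups were thus not treated alike, and no order is read from these values. The part of B cells in these values was not tested.

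**Figure D4:**
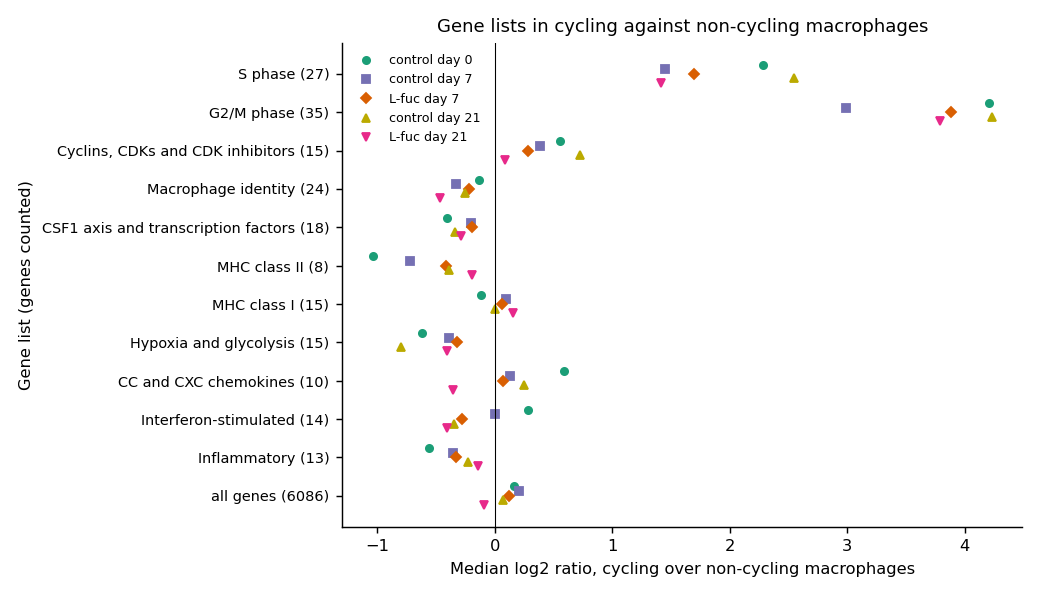
Median log2 ratio of cycling over non-cycling macrophages (x axis) for each gene list (y axis, with the number of genes counted), 1 symbol per library. The S phase and G2/M lists lie to the right in all 5 libraries, and the macrophage identity, MHC class II, transcription factor and hypoxia lists to the left; the bottom line gives all 6086 genes.

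L-fuc was compared with control within a day, 1 library against 1 library. At day 7, of 7222 genes with at least 30 UMIs in the cycling macrophages of both libraries together, 110 (1.52%) were at least 2-fold higher in L-fuc and 438 (6.06%) at least 2-fold lower, with a median log2 ratio of -0.15. Centred on that median, 164 were higher and 285 lower, and among cells with no Apod or Sparc UMI 620 were higher and 527 lower. Few cell cycle genes differed 2-fold: 1 of 37 S phase genes was 2-fold higher and 0 lower (median 0.15), and 0 of 53 G2/M genes were higher and 1 lower (median -0.10). The gene that was higher was Tyms, at a ratio of 2.39 (1.67 to 3.52). Of 23 macrophage identity genes, 0 were higher and 0 lower, with a median of 0.03.

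MHC class II stood out at day 7. Of its 8 genes, 4 were at least 2-fold higher in L-fuc and 0 lower, with a median log2 ratio of 1.03. The median was 0.85 with means of CPM per cell and 1.18 when centred on all genes. Among cells with no Apod or Sparc UMI, of which control day 7 held 11, it was 0.76. H2-Aa differed by a ratio of 2.38 (2.27 to 2.49) and Cd74 by 2.08 (2.03 to 2.13), and H2-Ab1 and H2-Eb1 by 2.32 (2.20 to 2.45) and 2.50 (2.39 to 2.62). Values of H2-Aa in the control libraries of day 0 and day 21, 4031 and 4981 CPM, lay between the 2664 CPM of control day 7 and the 6328 CPM of L-fuc day 7. In non-cycling macrophages the median of the list was 0.55, with log2 ratios of 0.52 for H2-Aa and 0.45 for Cd74. H2-Aa UMIs in cycling tumor cells moved in the same direction, at 1026, 647, 1539, 1439.6 and 1313 CPM over the libraries, and the part of free RNA in the macrophage values was not tested. Ciita, the master activator of these genes, had a ratio of 0.996 (0.693 to 1.45).

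Some chemokine genes were higher with L-fuc at day 7 too. Cxcl9, which interferon gamma induces and which attracts T cells, was at 797, 448, 1766, 559 and 537 CPM in cycling macrophages, and its ratio at day 7 was 3.94 (3.55 to 4.40). The highest value was that of L-fuc day 7. Ccl8 had a ratio of 3.32 (2.95 to 3.76), and Ccl12 a log2 ratio of 1.06. The remaining 7 of 10 counted chemokine genes did not differ 2-fold, and the median was 0.17. Among 14 interferon-stimulated genes, Gbp2 and Cxcl9 were 2-fold higher and Rsad2 and Ifit2 2-fold lower, with a median of -0.10. Nos2, which encodes the inducible nitric oxide synthase, was at 9.12, 6.87, 27.4, 0.792 and 1.73 CPM but in only 1, 3, 7, 1 and 2 cells.

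Fn1 was lower with L-fuc at day 7. This gene encodes fibronectin and was at 9.12, 42.4, 10.6, 3.17 and 23 CPM in cycling macrophages, with a ratio of 0.25 (0.132 to 0.455). Of the cell cycle regulators, Ccnd2, Cdk6 and Cdkn2b were 2-fold lower, and Mybl2 and Lin54, subunits of the complex that binds CHR elements, 2-fold higher, at ratios of 2.17 (0.866 to 6.5) and 2.11 (0.947 to 5.30) with wide intervals. Tumor genes were lower as well, 4 of 5 counted, with a median of -1.94, and all 5 red cell genes were higher, with a median of 1.75. Fn1 is a gene of the tumor cells too, at 193, 354, 388, 289 and 384 CPM, and the part of tumor RNA in its difference was not tested.

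At day 7 the medians of the other macrophage lists were within 2-fold. Over all 7222 genes 1.52% were 2-fold higher and 6.06% lower, with a median of -0.15, so counts of 0 or 1 in short lists lie near those shares. Of 13 inflammatory genes 1, Nos2, was 2-fold higher and 0 lower (median -0.22), of 15 MHC class I genes 0 were higher and 0 lower (median 0.04), and of 18 genes of the CSF1 axis and transcription factors 0 were higher and 0 lower (median 0.04). The hypoxia and glycolysis list had a median of -0.22 over 15 genes. Of 7 counted monocyte genes, Ly6c2 and Plac8 were 2-fold higher and Fn1 lower. With the immunoglobulin barcodes left out, Ly6c2 had a ratio of 0.990 (0.388 to 2.72), and of 6 monocyte genes Plac8 was higher, with 73.3% of its UMIs in L-fuc in 1 cell, and Fn1 lower. Of 4 counted genes of the tissue-resident type 0 differed 2-fold. Among other cell types, 3 of 3 counted fibroblast genes (Col3a1, Lum and Postn) were 2-fold lower, and Xcr1 and Batf3, the receptor and a transcription factor of cross-presenting dendritic cells, were 2-fold higher of 3 counted dendritic cell genes. Xcr1 was at 12.5, 6.87, 25.5, 21.4 and 10.9 CPM in cycling macrophages, in 6, 5, 21, 14 and 6 cells, highest in L-fuc day 7, and its log2 ratio in non-cycling macrophages at day 7 was -0.38.

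The 10 highest genes at day 7 were genes of the immunoglobulin group, Igkv8-24, Igkv10-96, Ighv1-62-1, Ighv8-8, Igkv5-43, Ighv1-81, Igha, Ighv1-85, Jchain and Ighv1-56. They came from the 2 cells of L-fuc day 7 named above almost alone, so they say nothing of the other 114. The 10 lowest were Gm13889, Tead1, Col18a1, Fbln2, Hspb1, Rhox5, Gm42047, Sparc, Apod and Me1, a set that holds both Sparc and Apod. Without the immunoglobulin barcodes 93 genes were 2-fold higher and 443 lower, 2 G2/M genes (Ect2 and G2e3) were lower, and 5 of 8 MHC class II genes were higher, with a median of 1.05. Il12b, a subunit of interleukin 12, then had a ratio of 8.84 (5.05 to 16.9), from UMIs in 10 and 2 cells, with 59.1% and 92.3% of them in 1 cell.

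At day 21, 308 of 7649 genes (4.03%) were at least 2-fold higher in L-fuc and 233 (3.05%) at least 2-fold lower, with a median of -0.15. Centred on it, 409 were higher and 139 lower. Cell cycle genes were lower: 13 of 40 S phase genes were 2-fold lower and 0 higher (median -0.81), and 11 of 52 G2/M genes were lower and 0 higher (median -0.60). The immunoglobulin barcodes moved these counts. Without them 256 of 6856 genes were 2-fold higher and 134 lower, and 3 of 38 S phase genes (Clspn, Rpa2 and Tyms, median -0.53) and 3 of 52 G2/M genes (Nuf2, Nusap1 and Ccnf, median -0.38) were lower and 1 (Gas2l3) higher, where all genes had a median of -0.01. In non-cycling macrophages the medians were 0.13 and 0.03. Tyms had a ratio of 0.459 (0.342 to 0.614) with these barcodes and 0.470 (0.330 to 0.660) without them.

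Fn1, Igf1, Spp1 and Mrc1, genes of different lists, were higher with L-fuc at day 21. Fn1, which was lower at day 7, had a ratio of 7.27 (2.63 to 28.0), Igf1, a growth factor made by macrophages, 9.81 (4.80 to 23.3), Spp1, the phosphoprotein osteopontin, 3.24 (2.92 to 3.6), and Mrc1, the mannose receptor, 3.14 (2.16 to 4.67). In the cells without immunoglobulin RNA of at least 1%, Fn1 held 20 UMIs in L-fuc and 3 in control, under the minimum of 30, at a ratio of 8.16 (2.42 to 42.9). Without those barcodes, 1 cell held 73.3% of the Igf1 UMIs in L-fuc, 35.7% of those of Spp1 and 23.5% of those of Mrc1, so the intervals for counting error do not describe the spread between cells. Of 10 chemokines Ccl8, Ccl9 and Ccl6 were 2-fold higher and Pf4 lower, with a median of -0.29, and without the barcodes Ccl7 was higher too and the median was 0.16. Ccl8 had a ratio of 2.68 (2.46 to 2.92), so it was higher with L-fuc at both days, while its log2 ratio in non-cycling macrophages was 0.11 at day 7 and 0.07 at day 21.

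MHC class II and macrophage identity showed less at day 21. Of 8 MHC class II genes 0 were 2-fold higher and 0 lower, with a median of 0.09, or 0.41 without the immunoglobulin barcodes. Of 24 macrophage identity genes 0 were 2-fold higher and 0 lower, with a median of -0.24. Without those barcodes the median was 0.11 and so changed sign, and 1 gene, Mertk, was 2-fold higher. Cd74 had a ratio of 1.21 (1.19 to 1.23). The difference between the days was not tested. In the hypoxia and glycolysis list Spp1 and Adm were 2-fold higher at day 21 and 0 genes lower, with a median of 0.38 over 15 genes, or 0.34 over 14 without those barcodes, where Adm was under 30 UMIs. Of 12 inflammatory genes (median -0.07) and 15 MHC class I genes (median 0.02) 0 were higher and 0 lower, while without those barcodes Il1a was 2-fold higher. Il1b had a ratio of 0.665 (0.631 to 0.701) and Tnf of 1.02 (0.927 to 1.12). Of 14 interferon-stimulated genes 0 were higher and 0 lower (median -0.09), or 1, Rsad2, higher and 0 lower without those barcodes (median 0.31). Of 23 cyclins, kinases and inhibitors 0 were higher and 3 lower (median -0.53), or 0 and 2 of 23 without those barcodes (median -0.35). Of 7 monocyte genes, Fn1, Ly6c1 and Ly6c2 were higher and 0 lower, and without those barcodes 0 of 3 differed 2-fold. Of 5 dendritic cell genes Mgl2 was higher and Clec10a lower, and without those barcodes Mgl2 was higher and Xcr1, not Clec10a, lower. Of 7 genes of the tissue-resident type, Mrc1 was 2-fold higher and Cbr2, F13a1 and Pf4 were lower, and without those barcodes F13a1 was under 30 UMIs. In control day 21 all 58 UMIs of Cbr2 and all 25 of F13a1 came from 1 cell, and without those barcodes 63.4% of the Pf4 UMIs in control came from 1 cell. Pf4, platelet factor 4, was at 149, 53.8, 49.8, 56.3 and 13.8 CPM in cycling macrophages, and its log2 ratio in non-cycling macrophages at day 21 was -0.81.

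Fut8, the enzyme that adds core fucose to N-glycans, was the 1 gene of 9 counted fucosylation genes at least 2-fold higher at day 21. It was at 11.4, 18.3, 11.2, 19.0 and 57.0 CPM in cycling macrophages, with a ratio of 3.00 (1.90 to 4.90). In the 10 immunoglobulin barcodes it stood at 108 CPM and in the other 40 cells at 18.3 CPM, and the ratio without those barcodes was 1.38 (0.663 to 2.89), an interval that includes 1. Ly6c2, a gene of monocytes that antibody-secreting cells also express, behaved alike: it was at 0, 9.16, 38.0, 212 and 515 CPM, in 0, 7, 6, 3 and 13 cells, and at 1186 CPM in the 10 barcodes against 3.05 CPM in the other 40. At day 7, 0 of 9 fucosylation genes differed 2-fold.

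The 10 highest genes at day 21 were again immunoglobulin genes, Igkv12-44, Igkv1-135, Ighv14-4, Igkv14-111, Igkv13-84, Igkv6-23, Igkv6-15, Igkv4-57-1, Ighv2-6-8 and Ighg1. Among the 10 lowest, Igkv5-48, Igkv9-120 and Igkv8-19 were of the same family, and the others were Car3, Areg, Cbr2, Brca1, F13a1, Fam89a and Hist1h2bp. In control day 21 all 39 UMIs of Areg came from 1 cell, and 26 of the 43 UMIs of Car3 came from 1 cell. Brca1, a DNA repair gene of S and G2 phase, had 5 UMIs in L-fuc and 35 in control. Without the immunoglobulin barcodes the highest genes included Ctsk, Fabp4, Mmp12, Atp6v0d2 and Cd36, genes of lysosomes, lipid handling and matrix breakdown. For Ctsk, Mmp12, Atp6v0d2 and Cd36 at least 94.0% of the UMIs in L-fuc came from 1 cell.

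**Figure D5:**
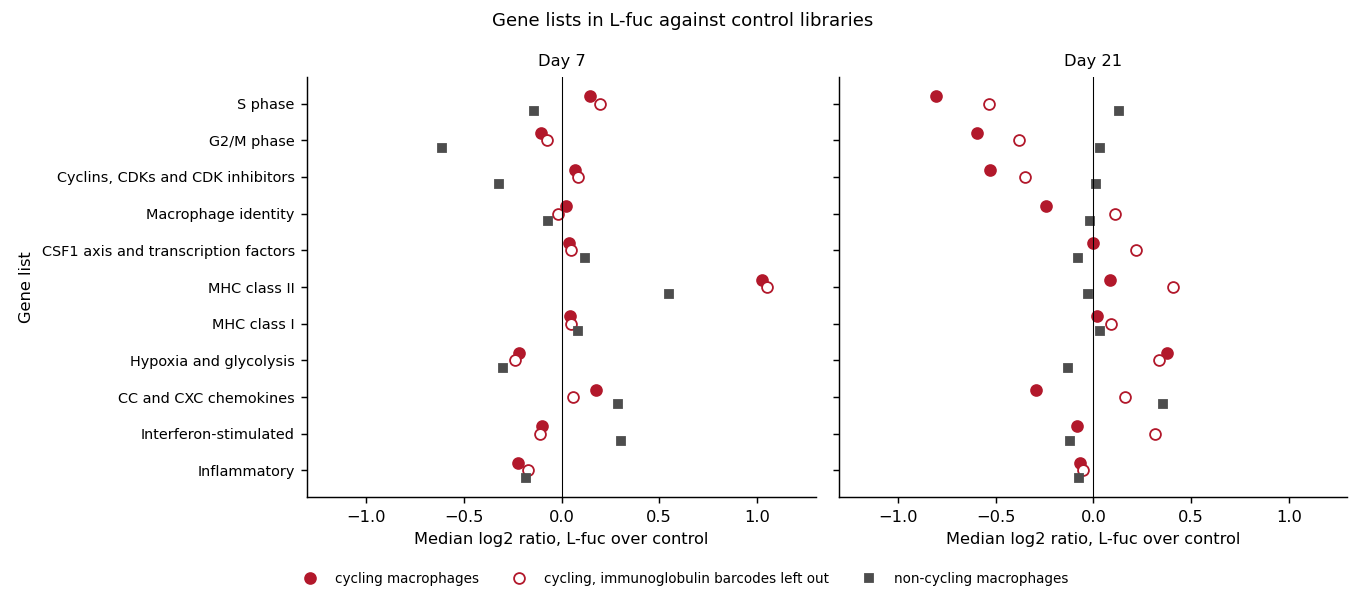
Median over genes of the log2 ratio, L-fuc over control (x axis), for each gene list (y axis) at day 7 (left) and day 21 (right), in cycling macrophages (filled red), in cycling macrophages without the immunoglobulin barcodes (open red) and in non-cycling macrophages (grey squares), 1 library against 1 library. Of the lists drawn, MHC class II is highest in cycling macrophages at day 7 (1.03), and S phase is lowest at day 21 (-0.81, or -0.53 without those barcodes).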

How the data were processed

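Each library is a droplet RNA library (10x Genomics) of pooled CD45-sorted cells. The authors aligned reads to mm10 and deposited a UMI count per gene and barcode, without normalization. The submitters' processing notes name Cell Ranger 3.0 and Seurat 4.0, and the matrix headers name Cell Ranger 7.1.0. The matrices hold 32285 genes, and columns of other samples left out number 0.

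Within a library, the UMIs of a group's cells were added up and scaled to CPM. Log2 ratios used a pseudocount of 1 UMI and genes with a minimum of 30 UMIs, in both groups together (in each library for cycling against non-cycling cells). With 1 library per condition no test was made. Shares have Clopper-Pearson intervals, ratios exact conditional and sums exact Poisson intervals. Ratios of gene UMIs have no pseudocount. Receptor contigs were matched by barcode. Scrublet (scanpy 1.11.5) ran at an expected 0.08% per 1000 cells. Its own threshold marked 0 barcodes in the day 7 libraries, where the expected number with the highest scores was taken instead. DoubletFinder and scDblFinder were not run.

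The members and the 25 gene lists (369 genes, 368 found, of 15 fucosylation genes 14) were chosen with earlier results of these data known. Aldoa has 2 entries in the matrices and was left out. Named genes are those of the rule, of the lists, and the 10 highest and 10 lowest per comparison; Il12b, the immunoglobulin group's genes and those highest without it were chosen after their values were seen. Alternatives were other minimums of genes, UMIs and rule genes, 20% mitochondrial UMIs, a pseudocount of 5, centring, mean CPM per cell and no Apod or Sparc UMI. Leaving out the immunoglobulin barcodes or control day 7, and Apod and Sparc under 10 UMIs, were added after seeing the data. The computations were tested on simulated data and ran in Python 3.11.15 with numpy 2.4.6, scipy 1.17.1, pandas 2.3.3 and matplotlib 3.10.9. Results for some genes of the lists are not reported here.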

Additional observations from a re-analysis of the deposited data

Results flagged for a closer look

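For 3 results, the directions at day 7 and day 21 were opposite, each from 1 library against 1 library, so the difference between the days was not tested in any of them. The share of macrophages that were cycling, in L-fuc over control, was 0.923 at day 7 and 1.37 at day 21, and the exact interval of each includes 1. Fn1 in cycling macrophages had a log2 ratio of L-fuc over control of -1.92 at day 7 and 2.63 at day 21. Without the barcodes rich in immunoglobulin RNA these were -2.13 and 2.64, the latter from 20 and 3 UMIs, under the minimum of 30. Tyms had log2 ratios of 1.24 and -1.11, which were 1.28 and -1.08 without the barcodes rich in immunoglobulin RNA.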

How the results depend on the processing

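No paired analysis was possible because each condition is 1 pooled library whose mice are not linked across libraries. Of 104 values of the main results under an alternative, 72 stayed within their interval or within 1.5 times the main count and 32 moved. Reversed means a change of side in a ratio of shares whose interval left out equality, or in a median that was at least 2-fold. Shares, counts and G2/M to S ratios could not be called reversed, and the intervals of both ratios of shares include equality. None of the 104 values could thus count as reversed, although the ratio of shares at day 7 did change side. Of 281 values of single libraries, lists and genes, 239 stayed, 42 moved and 0 reversed. Among these only medians of at least 2-fold could reverse, and medians closer to equality could change side and count as moved or as kept. The share of cycling cells over all libraries, 16.5%, became 24.1% with at least 2 cell cycle UMIs, 11.9% with at least 5, 12.6% with at least 500 genes, 20.6% with at least 2000 genes and 22.3% with cells thinned to 2000 UMIs and the minimum lowered to 1 UMI. The L-fuc to control ratio of shares at day 7, 0.923, became 1.68 (0.889 to 3.52) among macrophages with no Apod or Sparc UMI and 0.681 with thinned cells at 1 UMI. Without control day 7, 76.1% of the cycling macrophages of the other 4 libraries had no Apod or Sparc UMI, against 57.9% of all, and the G2/M to S ratio over the libraries was 2.53 against 2.60. That ratio was 2.42 with at least 2 and 2.88 with at least 5 cell cycle UMIs. With genes of at least 10 UMIs counted, 230 genes were 2-fold higher and 2 lower in cycling macrophages, 240 higher and 1032 lower with L-fuc at day 7, and 684 and 437 at day 21; with at least 100 UMIs, 41 were higher in cycling macrophages, and 45 and 74 at day 7 and 128 and 69 at day 21 were higher and lower with L-fuc. Among macrophages with no Apod or Sparc UMI, 13 genes were higher in cycling macrophages, and 620 were higher and 527 lower with L-fuc at day 7. Centring on the median of all genes gave 1 gene lower in cycling macrophages, 285 lower with L-fuc at day 7 and 139 lower at day 21. Means of CPM per cell gave 3 genes lower in cycling macrophages, 991 lower at day 7 and 558 higher at day 21. Without control day 7, 1 gene was lower in cycling macrophages in all libraries. Without the immunoglobulin barcodes 134 genes were lower at day 21. Leaving out a replicate was not possible with 1 library per condition. Macrophages and tumor cells passed the same sort, so tumor RNA and library cannot be told apart at control day 7, and low counts there limit single genes.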
